A study of Mus musculus with 6 samples.

Results

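The Zic genes encode a small family of transcription factors, and 4 of them, Zic1, Zic2, Zic4 and Zic5, were taken by symbol from the 23420 genes counted in the mouse lens transition zone at E14.5. They were chosen by the Zic5 counts of these libraries, since Zic5 was nearly without counts in control libraries and well counted in mutant libraries, so the comparison of mutant with control is given for them as a description, with no test. The transition zone is where epithelial cells of the lens stop dividing and start to lengthen into fibres. Libraries labelled mutant (3) came from embryos that were Etv4-/- (null), Etv5fl/fl (alleles flanked by loxP sites for Cre to cut) and also Etv1 fl/fl, together with the Cre transgene Le-Cre. Control libraries (3), titled wild type, came from embryos carrying Le-Cre alone, so Cre is present in both groups. Le-Cre acts in the surface ectoderm that gives rise to the lens, and Etv1, Etv4 and Etv5 are the Pea3 group of ETS factors that act downstream of fibroblast growth factor signals. All embryos had a mixed strain background, and nothing in the labels ties the libraries to separate embryos, so errors measure the spread between libraries, which may be technical.

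Zic proteins bind DNA through a run of C2H2 zinc fingers closely related to those of the Gli factors, which carry Hedgehog signals. In vertebrate embryos they are best known from the dorsal neural tube, the neural plate border and neural crest, the cerebellum and the retina, where Zic2 marks ganglion cells whose axons stay on the same side of the brain. These genes lie in head-to-head pairs, Zic1 with Zic4 on mouse chromosome 9 and Zic2 with Zic5 on chromosome 14.

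The promoter of the member with the largest difference, Zic5, is printed with that of Zic1, which had almost no counts, so that the stretches from which the genes start can be compared. Of the 4 genes, 3 (Zic1, Zic4 and Zic5) had an entry in the RefSeq promoter table (build GRCm38.p6). Each line runs 5′ to 3′ along the gene from 250 bases before to 50 bases after its annotated start, and capitals mark every GGAA on either strand (TTCC when it lies on the other strand), the core that ETS factors recognise. The Zic5 window is chr14:122465609-122465908 on the minus strand, and the Zic1 window is chr9:91365719-91366018 on the minus strand.
Zic5: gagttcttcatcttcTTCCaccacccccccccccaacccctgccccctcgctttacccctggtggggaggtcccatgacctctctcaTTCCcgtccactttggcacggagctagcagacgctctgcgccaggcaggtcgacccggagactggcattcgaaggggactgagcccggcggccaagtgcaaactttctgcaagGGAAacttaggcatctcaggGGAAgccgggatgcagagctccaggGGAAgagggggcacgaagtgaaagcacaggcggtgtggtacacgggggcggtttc
Zic1: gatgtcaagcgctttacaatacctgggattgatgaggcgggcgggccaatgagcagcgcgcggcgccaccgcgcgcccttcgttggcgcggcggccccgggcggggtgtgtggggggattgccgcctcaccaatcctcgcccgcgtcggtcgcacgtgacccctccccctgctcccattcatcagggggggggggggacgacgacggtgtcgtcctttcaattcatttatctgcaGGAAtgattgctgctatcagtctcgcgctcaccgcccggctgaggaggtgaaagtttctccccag
The Zic5 window held GGAA 5 times over both strands and the Zic1 window 1 time, while the Zic4 window, also on chromosome 9, held it 6 times. GGAA occurred in 96% of the 32851 promoter windows of this length, and 28.6% held it at least as often as Zic5 did. The longer string CCGGAA, searched on both strands and containing GGAA, was in none of the 3 windows and in 14.9% of all windows. Zic5 had a G+C content of 62.7% with 15 CpG dinucleotides, Zic1 65.3% with 31, and Zic4 46% with 8, against a median of 7 CpG over all windows. A match of letters is a description and shows no binding.

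Library totals lay between 13364742 and 17301168 counts, and a zero in a library allows up to between 0.152 and 0.247 CPM (3 counts; CPM is counts-per-million after scaling by the trimmed mean of M-values, TMM). Intervals and floors cover counting error only. In the targeted genes, Etv1 stood at 21.6 to 29.0 CPM in mutant and 45.4 to 70.7 CPM in control libraries, Etv5 at 82.9 to 116.2 CPM in mutant and 168.2 to 245.5 CPM in control libraries, and Etv4 at 3.71 to 4.92 CPM in mutant and 2.13 to 3.21 CPM in control libraries. Only Etv1 passed the edgeR threshold (adjusted p = 0.0319), and the call was lost in 4 of 6 fits that left out 1 library. Counts per gene can include exons that a deletion leaves in place, so they do not check the genotypes by themselves. The 15 defining lens genes listed, among them Cryaa, Pax6 and Foxe3, summed to between 145700 and 269000 CPM in mutant libraries. In control libraries the sum lay between 146500 and 320800 CPM. Cryaa made up most of the sum in each library, at means of 127300 CPM in mutant and 138700 CPM in control libraries. In edgeR 0 of 15 was called, beside 2.22% of all tested genes. At an unadjusted edgeR p under 0.05 there were 5, beside 16.2% of all tested genes, and DESeq2 and limma voom called 1 each. The list median log2 fold change was -0.48, beside 0.00176 over all tested genes, with 3 of 15 positive. Bfsp1, the gene of lowest p, was not called at -1.95 ± 0.49 (SE, edgeR adjusted p = 0.105). Mutant library 1 differed in the sex of its tissue, with 711 counts of Xist and 2 of Ddx3y, against 0 to 3 counts of Xist and 521 to 890 of Ddx3y elsewhere.

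Zic5 was the family member that was clearly counted in the mutant lens. It had 312, 289 and 229 counts in mutant libraries 1, 2 and 3, against 6, 2 and 2 counts in control libraries 1, 2 and 3. In normalized terms these were 15.8, 23.8 and 12.5 CPM in mutant libraries 1, 2 and 3, against 0.448, 0.121 and 0.111 CPM in control libraries 1, 2 and 3. Every mutant library lay far above every control library, and 2 of the control libraries were below the level that a count of 0 would allow. The means were 17.4 ± 5.83 CPM in mutant and 0.227 ± 0.192 CPM in control libraries (SD, n = 3 each). Summed over libraries, 830 mutant against 10 control counts gave a ratio of 79.2 (95% exact interval 42.9 to 166). The log2 fold change in the fit across all genes was 6.30 ± 0.53 (SE), the 14th highest of 12257 tested genes. Of the 10 control counts, 6 came from control library 1, and without that library the log2 fold change was 7.13. The authors' deposited table gives a log2 fold change of 5.64 with a standard error of 0.482 and a mean of 140.4 normalized counts for Zic5.

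The mutant libraries differed among themselves by more than counting error. The exact 95% interval for Zic5 ran from 21.2 to 26.7 CPM in mutant library 2, above those of mutant library 1 (14.1 to 17.7 CPM) and mutant library 3 (10.9 to 14.2 CPM). Crystallins, the abundant structural proteins of lens fibres, took 21.7%, 32.2% and 19.5% of all counts in mutant libraries 1, 2 and 3, and 37.6%, 30.2% and 21.8% in control libraries 1, 2 and 3 (16 genes). Within each group the order of Zic5 CPM followed the order of that share, and its part in the Zic5 values was not tested. Control library 1 had the highest crystallin share of all 6 and a Zic5 level below every mutant library. Scaled to all counts without TMM, Zic5 was at 18.0, 21.6 and 13.9 CPM in mutant libraries 1, 2 and 3, against 0.36, 0.117 and 0.124 CPM in control libraries 1, 2 and 3, an order in which control libraries 2 and 3 change places.

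**Figure D1:**
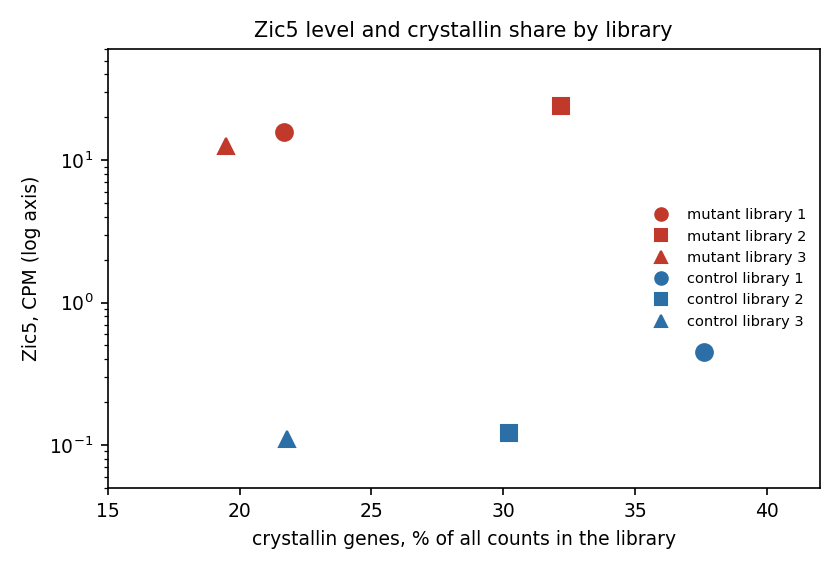
Zic5 in normalized CPM (vertical, log axis) against the percent of counts from 16 crystallin genes (horizontal) in each of 6 libraries, mutant in red and control in blue. The mutant points lie between 12.5 and 23.8 CPM and the control points between 0.111 and 0.448 CPM at overlapping crystallin shares.

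Zic2, the head-to-head partner of Zic5, was counted at low level in mutant libraries and not at all in control libraries. It had 4, 6 and 2 counts in mutant libraries 1, 2 and 3 (0.203, 0.495 and 0.109 CPM), against 0 counts in each control library. The groups did not overlap, as in 9.36% of all 17013 genes with a count (mutant higher), but the 2 counts of mutant library 3 lie under the limit of 3 counts that a zero allows. The 12 counts of mutant libraries against a floor of 3 counts over the control group gave Zic2 a mutant over control ratio of 3.82. That ratio takes no account of counting error in the 12 mutant counts. Mutant library 2 was the highest and mutant library 3 the lowest of the mutant libraries for both Zic5 and Zic2. Zic5 and Zic2 still differed widely in level: per kilobase of exon (exons of all GENCODE M21 transcripts joined), the mean was 3.56 ± 1.19 CPM per kb for Zic5 and 0.0934 ± 0.0698 CPM per kb for Zic2 in mutant libraries (SD, n = 3), a ratio of 38.1 between the genes. The authors' deposited table gives Zic2 a log2 fold change of 1.47 with a standard error of 0.779 and no adjusted p.

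The other pair was silent at this depth. Zic1, which acts in the cerebellum and dorsal neural tube, had 1 count in mutant library 1 and 0 counts in the other mutant libraries, and 0 counts in every control library. Zic4 had 0 counts in all 6 libraries, which allows up to 0.0598 CPM over the mutant and 0.0627 CPM over the control group. Zic1 and Zic4 overlap on opposite strands in GENCODE M21, and the library kit does not mark strand. Reads from a stretch that both genes share could thus not be told apart. Zic5 and Zic2 overlap no other annotated gene. Zic1, Zic2 and Zic4 did not pass the filter on low counts, and Zic5 passed it only through the mutant libraries, where it is high. The 1 tested member was called, beside 1.14% of all tested genes called higher in mutant libraries (2.22% called in either direction), and nothing is read from that count because this contrast chose the members.

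Of all counts in these 4 genes, Zic5 made up 98.5% in mutant libraries (843 counts) and 100% in control libraries (10 counts). The share of Zic5 was 98.4%, 98.0% and 99.1% in mutant libraries 1, 2 and 3.

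**Figure D2:**
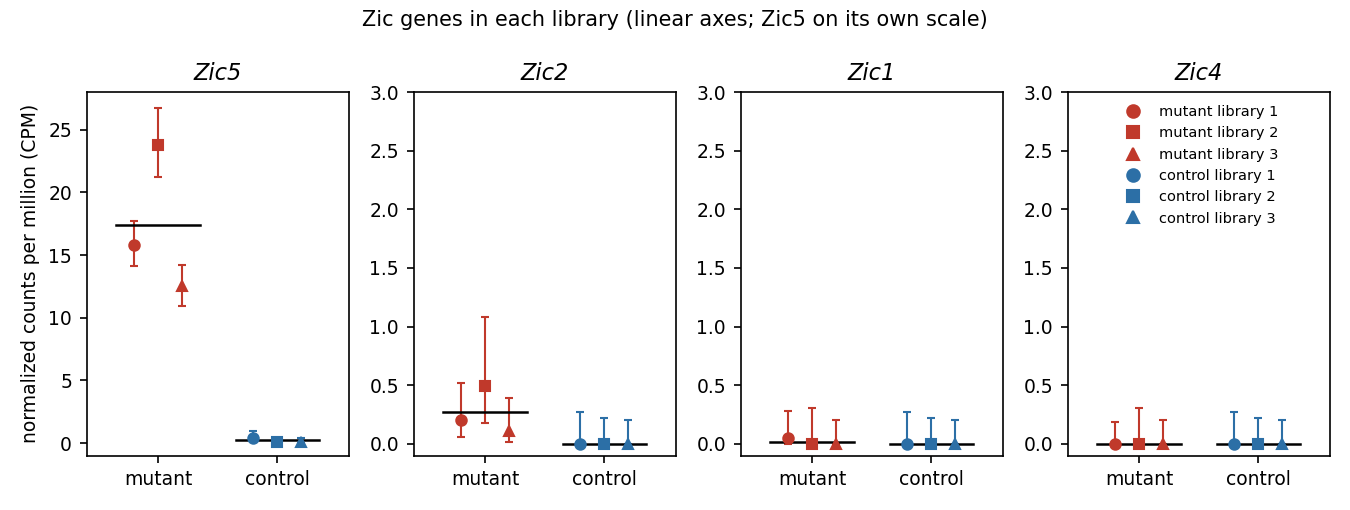
Normalized CPM of the 4 Zic genes in each library (linear vertical axes, wider for Zic5 than for the others), mutant in red and control in blue, with exact 95% counting intervals and the group mean as a black line. Zic5 lies between 12.5 and 23.8 CPM in mutant libraries, while Zic2, Zic1 and Zic4 lie below 1 CPM in every library.

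Zic5 was also set beside transcription factor genes that the lens is known to use, per kilobase of exon. In mutant libraries Zic5 ranged from 2.55 to 4.87 CPM per kb, below each of the 8 lens factors in the marker list in every mutant library. Pax6, the master regulator of eye development, averaged 17.3 ± 1.99 CPM per kb and Sox1, an activator of crystallin genes, 16.2 ± 2.77 CPM per kb in mutant libraries (SD, n = 3). The mean Zic5 level per kb was 20.6% of that of Pax6 in mutant libraries. This share depends on the joined exon lengths, 4.89 kb for Zic5 and 11.7 kb for Pax6, since a longer joined length lowers the value per kb. Before division by length the means in mutant libraries were 17.4 CPM for Zic5 and 201.9 CPM for Pax6. Six3, which helps to specify the lens, ranged from 11.9 to 15.1 CPM per kb and Hsf4, a heat shock factor of fibre cells, from 11.7 to 35.1 CPM per kb in mutant libraries. The highest of the 8 was Pitx3, at 262.1 ± 17.2 CPM per kb in mutant and 261.4 ± 16.4 CPM per kb in control libraries (SD, n = 3 each). In tissue samples of this kind, fewer cells with a transcript and less of it per cell cannot be told apart.

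**Figure D3:**
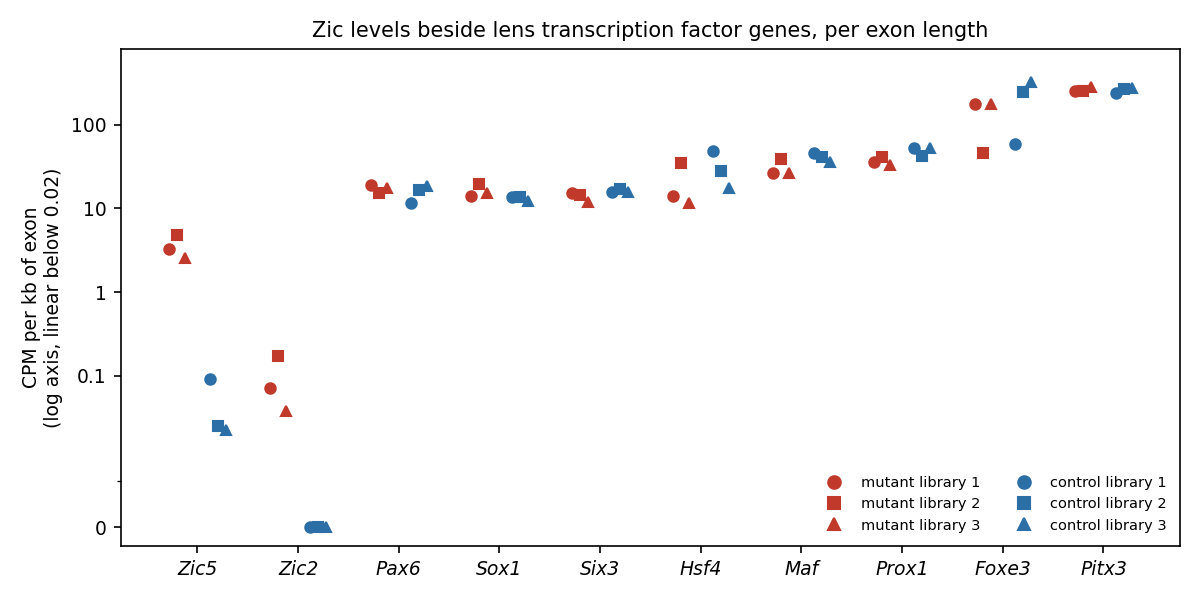
Levels per kilobase of exon (vertical, log axis that is linear below 0.02) of Zic5, Zic2 and 8 lens transcription factor genes in each library, mutant in red and control in blue. In mutant libraries Zic5 sits between 2.55 and 4.87 CPM per kb, above Zic2 and below the lens factors.

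The genes around the Zic5 and Zic2 pair were followed next, by gene order in the reference only. The 7 neighbours counted were the 3 nearest genes on each side and 1 between the pair. Clybl, which encodes a mitochondrial enzyme that clears citramalyl-CoA, rose. It had 47.2, 52.7 and 45.6 CPM in mutant libraries 1, 2 and 3, against 30.9, 26.0 and 21.3 CPM in control libraries 1, 2 and 3. The log2 fold change was 0.90 ± 0.18 (SE), with an edgeR adjusted p = 0.0407. The groups did not overlap, as in 11.4% of all tested genes with mutant higher (22.7% in either direction), and the call was lost in 5 of 6 fits that left out 1 library, where the log2 fold change lay between 0.77 and 0.94; only without control library 1 was it kept, at 1.03. The long noncoding gene 2610035F20Rik, annotated between Zic5 and Zic2, had 4, 7 and 0 counts in mutant libraries 1, 2 and 3, against 0 counts in each control library. Gm5089, on the far side of Zic5, had 1, 3 and 7 counts in mutant libraries 1, 2 and 3 and likewise 0 counts in each control library. Summed counts against the floor of 3 over the control group gave each a mutant over control ratio of 3.5. That ratio takes no account of counting error in the mutant counts. On the other side, Pcca, a subunit gene of propionyl-CoA carboxylase, Ggact and Tmtc4 did not pass, at log2 fold changes of 0.31 ± 0.13, 0.21 ± 0.30 and 0.58 ± 0.21 (SE) and edgeR adjusted p = 0.298, 0.778 and 0.231, and Ggact was at -0.022 without control library 3. Mutant libraries lay above control libraries without overlap for Pcca and Tmtc4, but not for Ggact. Of the 4 tested neighbours 1 was called, beside 2.22% of all tested genes, and DESeq2 and limma voom called 1 each. At an unadjusted edgeR p under 0.05 there were 3, beside 16.2% of all tested genes.

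Around Zic1 and Zic4 none of the 3 tested neighbours was called in edgeR, beside 2.22% of all tested genes. At an unadjusted edgeR p under 0.05 there were 0, beside 16.2% of all tested genes, and DESeq2 and limma voom called 0. Morf4l1, a chromatin gene, had a log2 fold change of 0.11 ± 0.13, Tbc1d2b one of 0.46 ± 0.43 and Plscr1, a scramblase gene, one of 1.46 ± 1.02 (SE; edgeR adjusted p = 0.74, 0.634 and 0.534). Plscr1 had 74, 1 and 40 counts in mutant libraries 1, 2 and 3, against 3, 14 and 20 counts in control libraries 1, 2 and 3, so the groups overlapped.

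**Figure D4:**
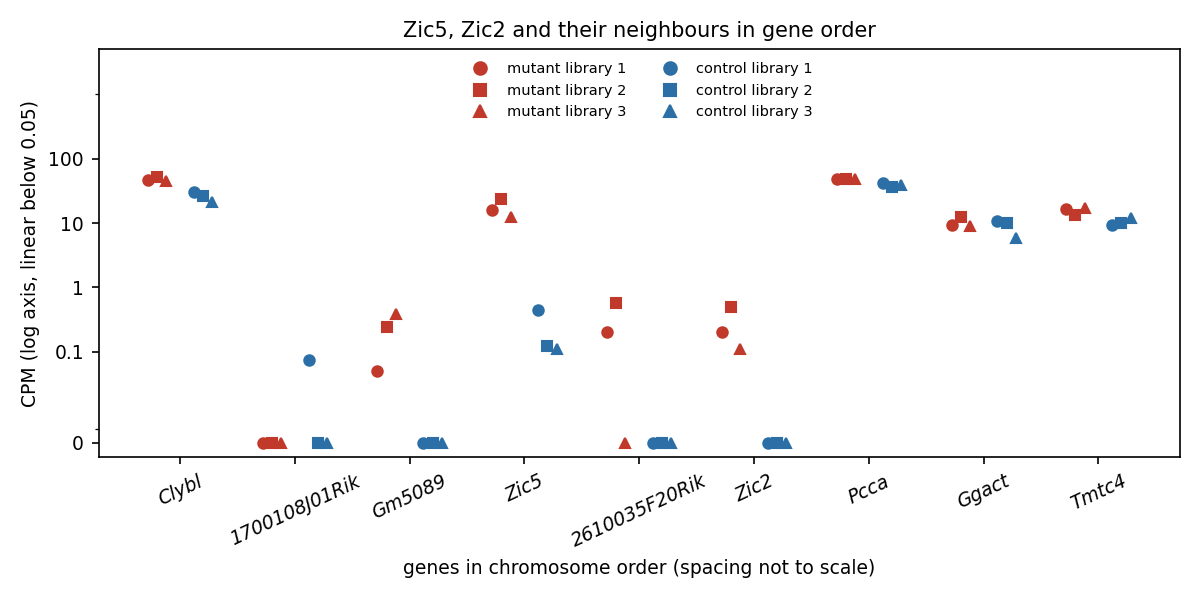
Normalized CPM (vertical, log axis that is linear below 0.05) of Zic5, Zic2 and their neighbours in chromosome order, with 3 mutant libraries in red left of 3 control libraries in blue for each gene. Zic2, Gm5089 and 2610035F20Rik were at 0 in every control library, and Clybl was above its control libraries in every mutant library.

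The genes whose log2 CPM over the 6 libraries was most like that of Zic5 were ranked by Pearson correlation among 9560 genes whose group mean reached 5 CPM in the mutant or the control libraries. The highest were Nlgn1 (r = 0.9997), Dlgap1 (0.9987), Plagl1 (0.9949), Nom1 (0.9946) and Fhl1 (0.9933), all over n = 6 libraries that share depth and composition, so these values are a description. Nlgn1, which encodes the synaptic adhesion protein neuroligin 1, had 6.14, 7.92 and 5.34 CPM in mutant libraries 1, 2 and 3, against 0.897, 0.425 and 0.388 CPM in control libraries 1, 2 and 3. Mutant library 2 was the highest of the mutant libraries and control library 1 the highest of the control libraries, the order also seen for Zic5. Nlgn1 (log2 fold change 3.51 ± 0.47), Dlgap1, which encodes a scaffold protein of synapses (2.70 ± 0.31), and Plagl1, a zinc finger growth regulator (1.96 ± 0.26), rose (SE; edgeR adjusted p = 0.0083, 0.00373 and 0.00834). The calls of Nlgn1 and Plagl1 were lost without control library 2, at log2 fold changes of 3.34 and 1.96. Likeness to Zic5 over the same libraries favours genes that differ between the groups, so these calls are no independent evidence. Nom1, a nucleolar gene, and Fhl1, which encodes a LIM domain protein, had small differences that did not pass: Nom1 averaged 37.1 ± 0.189 CPM in mutant and 34.3 ± 0.615 CPM in control libraries, and Fhl1 37.9 ± 2.16 CPM in mutant and 27.4 ± 1.38 CPM in control libraries (SD, n = 3 each).

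The Gli and Glis genes are the nearest zinc finger relatives of the Zic genes, and edgeR called none of the 4 tested members, beside 2.22% of all tested genes. An unadjusted edgeR p under 0.05 was reached by 1 of them, beside 16.2% of all tested genes, and DESeq2 and limma voom made 0 calls here. Glis1 had 3.20, 3.05 and 1.85 CPM in mutant libraries 1, 2 and 3, against 7.77, 5.95 and 4.55 CPM in control libraries 1, 2 and 3. These groups did not overlap, as in 22.7% of all tested genes in either direction. At a log2 fold change of -1.17 ± 0.38 (SE) Glis1 missed the threshold (edgeR adjusted p = 0.173). Gli2, the main Hedgehog activator, had a log2 fold change of -0.34 ± 0.35, Gli3, the main repressor, one of 0.61 ± 0.46, and Glis2 one of -0.18 ± 0.24 (SE), and the signs of Gli2 and Glis2 turned without control library 3, to 0.15 and 0.058. Gli1, the usual readout of Hedgehog signalling, had 3, 0 and 1 counts in mutant libraries 1, 2 and 3, against 2, 0 and 0 counts in control libraries 1, 2 and 3, and Glis3 had at most 7 counts in a library. The median log2 fold change of the tested list was -0.26, beside 0.00176 over all tested genes, and 0.10 without control library 3.

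In the wider Hedgehog pathway, 14 of 18 listed genes were tested and none was called in edgeR, beside 2.22% of all tested genes. At an unadjusted edgeR p under 0.05 there were 4, beside 16.2% of all tested genes. DESeq2 called 1 and limma voom also 1, where these tools called 821 and 801 genes over the genome. Both tools called Dhh, a Hedgehog ligand gene, with 17, 38 and 20 counts in mutant libraries 1, 2 and 3, against 0, 0 and 2 counts in control libraries 1, 2 and 3. The 75 mutant against 2 control counts gave a ratio of 35.8 (95% exact interval 9.57 to 301) by counting alone, while in edgeR Dhh missed the threshold at a log2 fold change of 5.11 ± 1.13 (SE) and an adjusted p = 0.0617. Shh had 0 counts in all 6 libraries. The Hedgehog receptor gene Ptch1, itself a target of the pathway, had 8.63, 7.67 and 5.12 CPM in mutant libraries 1, 2 and 3, against 13.4, 9.05 and 12.3 CPM in control libraries 1, 2 and 3, and missed the threshold at a log2 fold change of -0.70 ± 0.29 (SE) and an edgeR adjusted p = 0.28. The coreceptor gene Cdon (log2 fold change -0.90 ± 0.32) and Hhip, which encodes a decoy receptor for Hedgehog ligands (1.05 ± 0.34), also missed it (SE; edgeR adjusted p = 0.208 and 0.173). The median of the list was -0.19, with 6 of 14 genes positive, and it was 0.25 without control library 3.

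Of the 20 listed regulators of the neural plate border and neural crest, which act with Zic factors in vertebrate embryos, 8 were tested and Sox9 alone was called in edgeR, beside 2.22% of all tested genes. At an unadjusted edgeR p under 0.05 there were 3, beside 16.2% of all tested genes. DESeq2 called 2 and limma voom 1, of 821 and 801 genes over the genome. Sox9, a transcription factor gene of neural crest and cartilage, had 24.3, 14.7 and 20.8 CPM in mutant libraries 1, 2 and 3, against 3.96, 5.77 and 4.93 CPM in control libraries 1, 2 and 3. Sox9 rose by 2.02 ± 0.27 on the log2 scale (SE) at an edgeR adjusted p = 0.0083, and the call was lost without mutant library 1 or 3, at log2 fold changes of 1.86 and 1.99. Twist1, a crest and mesenchyme gene, had 5.43, 1.32 and 3.49 CPM in mutant libraries 1, 2 and 3, against 0, 0.85 and 0.222 CPM in control libraries 1, 2 and 3, and was not called, at a log2 fold change of 3.21 ± 0.99 (SE) and an edgeR adjusted p = 0.16. Twist1 was lowest in mutant library 2, where Zic5 was highest. Tfap2b had a log2 fold change of 2.37 ± 0.89 and Id3 one of -0.90 ± 0.57, without passing (SE). Pax3, Foxd3, Dlx5 and Dlx6 had 0 counts in all 6 libraries. The median of the 8 tested genes was 0.13, and -0.18 with no filter on low counts.

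Markers of other cell types that the dissected tissue could hold were summed beside Zic5. Counts called in these lists stand beside 2.22% of all tested genes in edgeR and 16.2% at an unadjusted edgeR p under 0.05. DESeq2 and limma voom called 821 and 801 genes over the genome. Periocular mesenchyme markers (19 genes, with Alx1 and Lmx1b at 0) summed to 105.3 to 177.2 CPM in mutant and 65.4 to 163.5 CPM in control libraries, and none of 8 tested was called in edgeR (2 at an unadjusted p under 0.05, 2 called by DESeq2, 0 by limma voom). Neural retina markers (18 genes, with Six6, Ptf1a and Crx at 0) summed to 32.3 to 102.5 CPM in mutant libraries. In control libraries the sum was 51.6 to 292.8 CPM. Sfrp2 made up most of this sum in every library, at 16.3 to 80.4 CPM in mutant and 45.9 to 274.0 CPM in control libraries. Of 3 tested, Otx1 rose, with 7.61, 8.08 and 2.56 CPM in mutant libraries 1, 2 and 3, against 0.299, 0.972 and 0.61 CPM in control libraries 1, 2 and 3 (log2 fold change 3.24 ± 0.62 (SE); edgeR adjusted p = 0.0353), beside 1.14% of all tested genes called higher. The other two, Sfrp2 and Hes5, were not called at -1.74 ± 0.72 and -0.28 ± 0.54 on the log2 fold change scale (SE), with edgeR adjusted p = 0.296 and 0.843, and the list median was -0.28. Otx1 encodes a homeodomain factor of forebrain and eye, and its call was lost in 5 of 6 fits that left out 1 library, with log2 fold changes from 2.93 to 3.69 over all 6; it was kept without mutant library 3. Markers of neurons and glia, the cells in which Zic factors are best known, summed to 13.4 to 17.5 CPM in mutant and 11.8 to 16.0 CPM in control libraries (15 genes, with Snap25 and Olig2 at 0), and edgeR, DESeq2 and limma voom called 0 of 8 tested, with 0 at an unadjusted edgeR p under 0.05.

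Pigment cell markers (11 genes, with Tyr and Rpe65 at 0) summed to 7.74 to 11.9 CPM in mutant and 13.8 to 17.2 CPM in control libraries, and none of 3 tested was called by any of the 3 tools or reached an unadjusted edgeR p under 0.05 (0 in each case). Markers of vessels, macrophages and blood (19 of 21 listed had a row) summed to 33.5 to 92.1 CPM in mutant libraries. In control libraries the sum was 39.8 to 68.6 CPM. Tek was the largest member in every library, at 22.68 to 53.15 CPM in mutant and 27.95 to 41.74 CPM in control libraries. None of 12 tested was called in edgeR, beside 2.22% of all tested genes. At an unadjusted edgeR p under 0.05 there were 4, beside 16.2% of all tested genes, while DESeq2 called 0 and limma voom 1. The macrophage genes Csf1r, Tyrobp and C1qa had log2 fold changes of 1.98 ± 0.74, 2.43 ± 1.04 and 2.52 ± 1.02, and Cd34, a gene of vessel and blood progenitor cells, one of -2.11 ± 0.85 (SE), all short of the threshold at edgeR adjusted p = 0.237, 0.302, 0.277 and 0.273. Csf1r had 6.09, 2.23 and 2.62 CPM in mutant libraries 1, 2 and 3, against 1.94, 0.547 and 0.333 CPM in control libraries 1, 2 and 3. The list median of 1.19 on the log2 scale was 0.33 with no filter. It was 0.32 with the filter of 5 CPM in 3 libraries, which kept Tek alone, so that this is the value of Tek only. Without 1 library the median was 0.45 (mutant library 3 left out), 0.52 (control library 3) or 2.45 (control library 1). Surface ectoderm markers (16 genes, with Krt12 at 0) summed to 26.6 to 38.7 CPM in mutant and 36.3 to 49.4 CPM in control libraries. Of 8 tested, Perp, a gene of epithelial junctions, fell, with 13.7, 12.0 and 10.6 CPM in mutant libraries 1, 2 and 3, against 29.5, 25.9 and 26.8 CPM in control libraries 1, 2 and 3 (log2 fold change -1.18 ± 0.19 (SE); edgeR adjusted p = 0.0158), beside 1.08% of all tested genes called lower, a call lost in 4 of 6 fits without 1 library (-1.28 to -1.09 over all 6). Among the tested keratin genes, Krt5, Krt15 and Krt19 missed the threshold at log2 fold changes of 2.0 ± 0.81, 1.85 ± 0.84 and 0.66 ± 0.77 (SE) and edgeR adjusted p = 0.271, 0.323 and 0.729. Krt8 and Krt18 had negative values, -0.17 ± 0.71 and -0.041 ± 0.60 (SE), and were not called either. Of the 8 tested genes of the list 4 were positive. Over these 6 lists, 3 of 42 tested markers (Csf1r, Otx1 and Twist1) were higher in every mutant library than in every control library. Of all tested genes, 11.4% were higher in this way. Another 5 markers (Foxc1, Bhlhe41, Perp, Cd34 and Cldn5) were lower in every mutant library, while 22.7% of all tested genes did not overlap in either direction. The part of such cells in the Zic5 values was not tested.

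**Figure D5:**
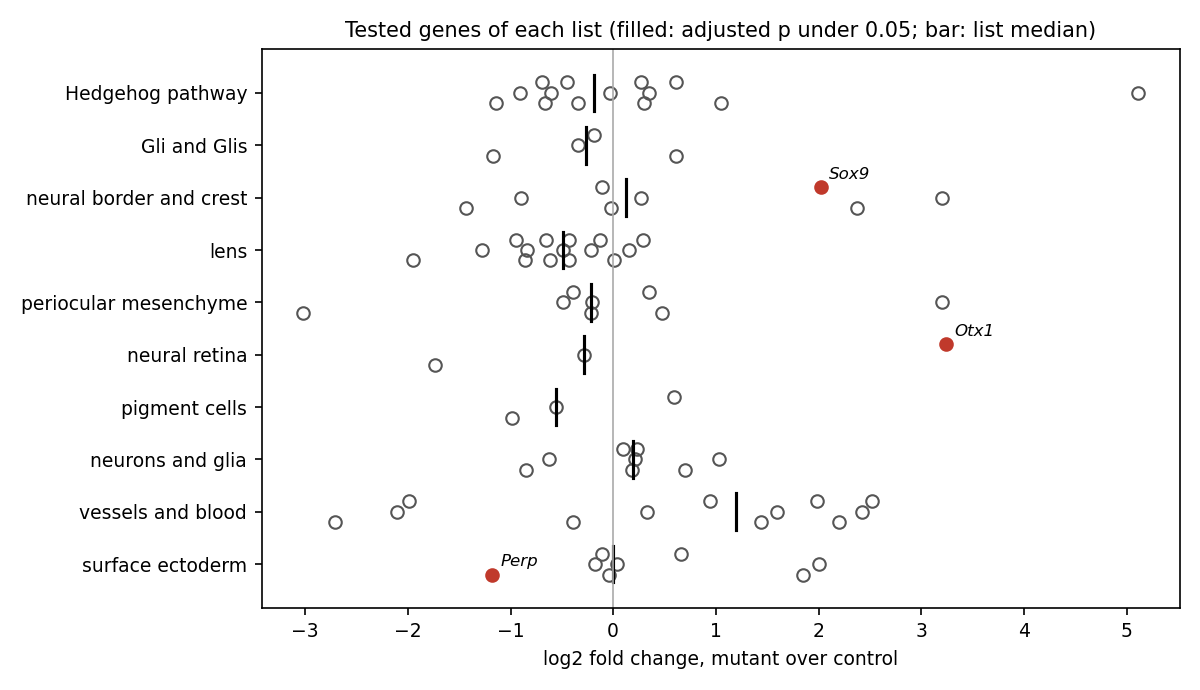
Log2 fold change, mutant over control (horizontal), of each tested gene in 10 lists, with filled points for genes past the adjusted p threshold in edgeR and a black bar at each list's median. Sox9 and Otx1 lie to the right and Perp to the left, and no tested gene of the Hedgehog or Gli and Glis lists is filled.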

How the data were processed

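RNA was measured in 3 mutant and 3 control libraries of the lens transition zone. Per the labels' protocols, frozen embryos gave RNA that was amplified with a SMART-seq v4 kit, which uses no molecular identifiers and marks no strand, and made into Nextera XT libraries. Tools listed in the submitters' processing notes are bcl2fastq 1.8.4, DESeq, TopHat and Cufflinks, with the build mm9 and no roles; which program counted reads, on which annotation, is not given in the sources used here. For each gene symbol the authors deposited raw counts, identical in the sample files and the series table (0 differing values). The authors' deposited comparison table holds, per the file headers, a mean of normalized counts (a signal over libraries), log2 fold changes, a test score and p-values; positive log2 fold changes there stand for higher values in mutant libraries.

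Counts were fitted in edgeR 4.0.16 (R 4.3.3) over all genes: filterByExpr (minimum count 10, minimum total 15) left 12257 genes, TMM scaled the library sizes, and mutant was compared with control by the quasi-likelihood F test (robust, no covariates), with Benjamini-Hochberg adjustment and a threshold of 0.05. Standard errors were derived from the F statistic, and log2 CPM used 0.5 added counts. The procedure was tested on simulated data. Some genes are not reported here. Ratios of summed counts carry exact binomial, and CPM values exact Poisson, 95% intervals. Exon lengths came from GENCODE M21 and promoters and gene order from RefSeq (GRCm38.p6), another build than mm9, so coordinates are given for the printed promoter windows only, on GRCm38.p6. Groups and replicate numbers came from sample titles. The Zic genes and all gene lists were chosen with earlier results of these data known. Genes named are the Zic genes, Gli and Glis genes, Pea3 genes, nearest neighbours and the 5 genes most like Zic5. Up to 4 genes of lowest p per list are also named, with predicted genes only as neighbours. Genes at 0, the largest gene of a list sum, and other list members named only as such were chosen after their values were seen. Alternatives were other scalings, filters, a replicate block, DESeq2 1.42.0, limma 3.58.1 (voom) and leaving out each library; scaling by library totals was chosen after seeing the data.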

Additional observations from a re-analysis of the deposited data

How the results depend on the processing

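Zic5 was chosen by the contrast of mutant with control, so its values here are a description and no support. Zic5 kept its direction in all 13 alternative fits. Its log2 fold changes ran from 6.29 to 6.44 over other scalings, filters and tests and from 5.95 to 7.13 without 1 library. Its mean ranged from 14.4 to 19.4 CPM in mutant and from 0.121 to 0.282 CPM in control libraries without 1 library, and that of Zic2 in mutant libraries from 0.159 to 0.341 CPM.

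The number of genes called over the genome, 272 (140 higher, 132 lower), was 821 (401 higher, 420 lower) with DESeq2, 801 (389 higher, 412 lower) with limma voom, and 91 to 479 (54 to 213 higher, 36 to 266 lower) without 1 library. With the replicate number as a block it was 122 (68 higher, 54 lower). The neural border, neural retina and surface ectoderm lists then each had 0 called genes. Clybl (adjusted p = 0.104), Etv1 (0.0824), Otx1 (0.0886), Perp (0.0702) and Sox9 (0.0513) were not called in that edgeR fit. Same-numbered libraries correlated at -0.247, -0.121 and 0.197 in their deviations from group means, and 1 of 6 libraries correlated best with its own number. Deviations among only 3 libraries per group cannot decide whether the numbers pair the libraries.

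DESeq2 called 2 genes each of the neural border and periocular mesenchyme lists and 1 each of the Hedgehog, lens, retina and surface ectoderm lists; limma voom called 1 each of the Hedgehog, neural border, lens, retina, vessel and surface ectoderm lists. With no filter the neural border median was -0.18. With 5 CPM in 3 libraries Pdgfra alone of the periocular mesenchyme markers was kept, so the median of 0.47 is its value only. Otx1 reached 5 CPM in mutant libraries 1 and 2 alone, so that filter removed it and 0 retina genes were called. The causes of the other changes were not tested. Without 1 library, called genes ranged from 0 to 1 in the neural border, retina and surface ectoderm lists and from 0 to 2 in the lens list, and medians from -0.26 to 0.25 (Hedgehog), -0.57 to -0.34 (lens), -0.23 to 0.50 (neurons and glia), -0.42 to 0.10 (Gli and Glis), 0.45 to 2.45 (vessels) and -0.068 to 0.17 (neural border). Signs turned for Ggact (-0.022 to 0.37 over the fits without 1 library), Gli2 (-0.57 to 0.15), Glis2 (-0.32 to 0.058) and Hes5 (-0.71 to 0.15) without control library 3, Krt19 (-0.066 to 1.43) without mutant library 3 and Nefl (-0.33 to 2.20) without mutant library 2, none of them called. Depth limits Zic1, Zic2 and Zic4, which lay at or near the floor of 3 counts.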
